A study of Mus musculus with 3 samples.

Results

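The Myc, Max and Mxd network was described in mouse splenic T lymphocytes after 15 h of culture with LZ-8. Its 10 genes (Myc, Mycn, Max, Mxd1, Mxi1, Mxd3, Mxd4, Mnt, Mga and Mlx) were chosen by name, and all 10 were found among the 44788 gene symbols of the count table. LZ-8 is a small protein of the fungus Ganoderma lucidum, known to make T cells divide. The cells came from spleens of female Balb/c mice aged 6 to 8 weeks, were captured with magnetic beads against the T cell surface protein Thy1 (CD90.2), and were kept in medium with 2% fetal bovine serum. RNA was sequenced on the Ion Proton platform in 3 libraries, replicates 1 to 3 of a single LZ-8 group. Untreated cells were not analysed here, so every comparison lies between genes within a library or between the replicates, and no value measures what LZ-8 changed. Nothing in the labels ties the replicates to separate mice or cultures, so p-values over them measure only the spread between these libraries, which may be technical. A dose of LZ-8 is not given in the sources used here.

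The network is a set of transcription factors of the basic helix-loop-helix leucine zipper class that bind DNA as pairs. Max is the common partner: paired with Myc or Mycn it activates genes of growth, ribosome production and metabolism, and paired with an Mxd protein, Mnt or Mga it represses genes through the same DNA motif, the E-box. Mlx is a parallel partner that pairs with Mlxip (MondoA) or Mlxipl (ChREBP) and can also take up Mxd1, Mxd4 and Mnt. In T cells Myc is induced by antigen receptor stimulation and is needed for the metabolic change that precedes division, whereas Mxd proteins are known mainly from resting and differentiating cells.

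The libraries held 19041670, 12669690 and 14715992 counts in replicates 1, 2 and 3, and a gene without reads could still lie at up to 0.158, 0.237 and 0.204 CPM (counts per 1000000 counts; the limit is 3 counts per library). These limits and the intervals below cover counting error only. All 12 T cell markers examined stood above 100 CPM (5.74% of all symbols did), with a summed level of 5470 to 5661 CPM over the libraries. The 8 B cell markers summed to 18.4 to 21.2 CPM, the 10 monocyte and macrophage markers to 4.03 to 5.03 CPM, the 8 neutrophil markers to 0.158 to 0.680 CPM, the 6 natural killer cell markers to 20.05 to 22.6 CPM (most of it Eomes, which activated CD8 T cells also express), the 8 erythroid markers to 2.60 to 2.89 CPM and the 6 dendritic cell markers to 9.72 to 11.8 CPM. Cd68 (mean 4.08 CPM) made up most of the monocyte and macrophage sum, and Zbtb46 (mean 9.49 CPM) most of the dendritic cell sum. Of these 46 markers of other cells 12 had no read, among them the macrophage genes Csf1r, C1qa, C1qc and Fcgr1. In bulk RNA, fewer cells of a type and less RNA per cell cannot be told apart.

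Myc was the highest of the 10 members and nearly the sole source of activating-partner RNA. Myc had 8622, 5523 and 6852 reads in replicates 1, 2 and 3, or 453, 436 and 466 CPM. Per kilobase of exon, the scale on which genes are compared with each other below, its level was 167, 160 and 171 CPM per kb in the same order, with a mean of 166 ± 5.48 (SD, n = 3). That mean was above 97.6% of the 12310 genes that passed an expression filter (at least 1 CPM in at least 2 libraries) and had an exon length. The Myc gene lies on chromosome 15 at 61985391 to 61990374 on the plus strand (GRCm38), and none of its exon bases overlaps another annotated gene. Pvt1, the long non-coding RNA gene next to Myc, had 382, 228 and 324 reads (20.06, 18.0 and 22.0 CPM).

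The other activating partner, Mycn, best known from the embryo and the developing nervous system, was at the detection limit. It had 1 read in replicate 1 and 0 reads in replicates 2 and 3. Over the libraries together Mycn made up 1 of 20998 reads of Myc and Mycn, or 0.00476% (exact Clopper-Pearson 95% interval 0.000121 to 0.0265%). Mycl (L-Myc), a relative outside the 10 genes, had 2, 0 and 2 reads.

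Max, which every Myc protein needs to bind DNA, was the second member in order. It stood at 55.9, 54.4 and 56.1 CPM per kb in replicates 1, 2 and 3 (3833, 2482 and 2969 reads), a mean of 55.5 ± 0.905 (SD, n = 3) that exceeded 91.2% of the filtered genes. Its spread over the libraries was 1.63% of the mean, below the 1.82% that counting noise alone would give. Max is on chromosome 12 at 76937269 to 76962201 on the minus strand.

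Mlx, the parallel partner, followed at 36.4, 34.9 and 37.2 CPM per kb (mean 36.2 ± 1.17, SD, n = 3). Of its exon bases 19.3% overlap the gene Psmc3ip, and the use of strand in counting is not given in the sources used here, so reads from the shared bases cannot be told apart. Mlx had 72.7, 69.8 and 74.4 CPM and Psmc3ip 9.24, 8.37 and 6.999 CPM. Of the proteins that pair with Mlx alone, Mlxip was at 20.9, 21.3 and 22.2 CPM per kb, and Mlxipl, the glucose-sensing factor of liver and fat, had 0, 0 and 2 reads.

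Among the repressing partners the large proteins Mnt and Mga led per kb of exon. Mnt, a widely expressed antagonist of Myc, had 1019, 651 and 819 reads in replicates 1, 2 and 3, or 11.6, 11.1 and 12.03 CPM per kb (mean 11.6 ± 0.462, SD, n = 3). Mga, which carries a T-box domain beside its helix-loop-helix domain and belongs to a Polycomb complex, had 3019, 1950 and 2171 reads, or 10.3, 10.03 and 9.62 CPM per kb (mean 9.995 ± 0.361). Mnt was above Mga in each library and their ranges did not overlap, but the gap was small, 0.21 ± 0.10 log2 units. Mga has the longest exon length of the network, 15340 bases against 4627 for Mnt, and by reads with no length scaling Mga was the higher of the pair. Both sat near the middle of the filtered genes, above 59.4% (Mnt) and 55.2% (Mga) of them.

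The Mxd family was low. Mxd1, the founding member, which is induced when myeloid cells differentiate, had 726, 456 and 584 reads, or 5.39, 5.09 and 5.61 CPM per kb. Mxi1 (Mxd2) had 355, 222 and 219 reads, or 2.73, 2.57 and 2.18 CPM per kb. Mxd4 had 255, 159 and 234 reads, or 1.58, 1.48 and 1.87 CPM per kb. These 3 genes lay above 38.7%, 22.3% and 16.2% of the filtered genes, in that order. Mxd3, the member known from the S phase of dividing cells, had 11, 12 and 19 reads, or 0.244, 0.3998 and 0.545 CPM per kb. It reached 1 CPM in replicate 3 only and, like Mycn, did not pass the filter. Overlap with other annotated genes covers 4.43% of the exon bases of Mxd3 (Prelid1), 2.84% of Mxi1 and 6.06% of Mxd4; Prelid1 stood at 172 ± 6.46 CPM, and its part in the Mxd3 reads was not tested.

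**Figure D1:**
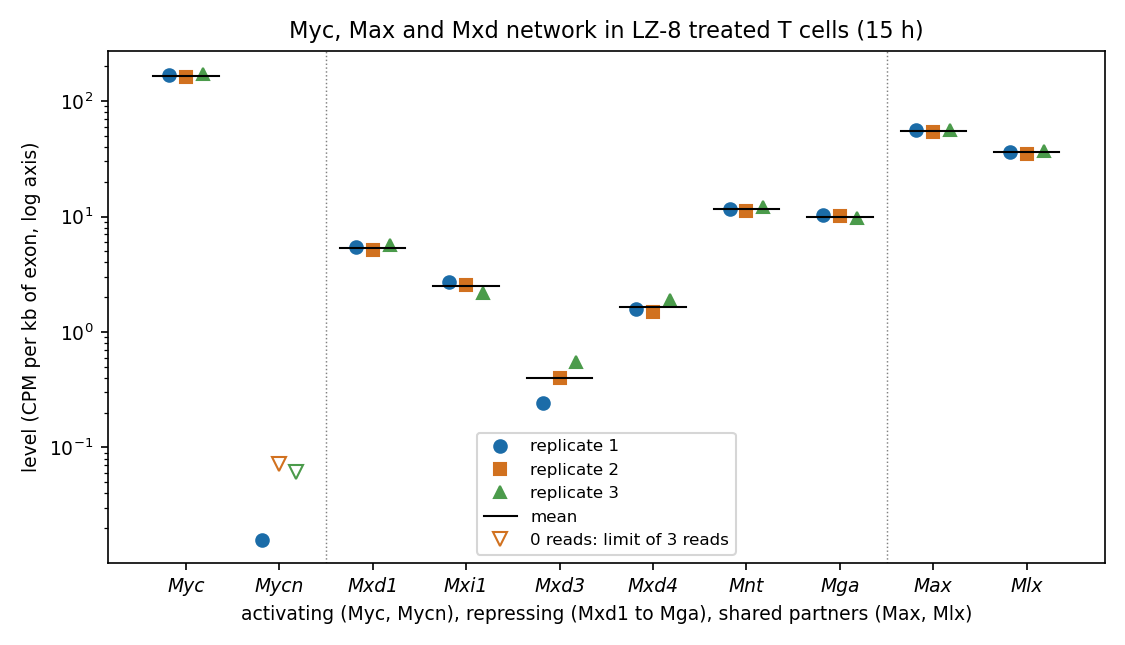
Level of each network gene in CPM per kb of exon (log axis) in replicate 1 (circles), 2 (squares) and 3 (triangles), with the mean as a line; open symbols mark the limit that 0 reads allow for Mycn. Myc lies at 160 to 171 CPM per kb, Max and Mlx follow, and the repressing partners lie at or below 12.03 CPM per kb.

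The order of mean levels per kb was Myc, Max, Mlx, Mnt, Mga, Mxd1, Mxi1, Mxd4, Mxd3 and Mycn, and no neighbours in it had ranges that overlapped over the 3 libraries. The narrowest gaps were that of Mnt over Mga and those of Max over Mlx (0.62 ± 0.03 log2 units) and Mxi1 over Mxd4 (0.60 ± 0.33). The order depended on the length used: with the longest coding transcript Mxd4 (3.60 CPM per kb) passed Mxi1 (3.38), and with the mean length of the coding transcripts Mxd1 (14.9) passed Mga (12.8). With no length scaling Mga (153 CPM) passed Mlx (72.3 CPM) and Mnt (53.5 CPM). Scaled by coding exons only, Max (404) passed Myc (331), and Mxd1 (49.7) passed Mnt (25.4). Mga (16.8) then fell below Mxd4 (22.2) and Mxi1 (16.9). Reads from untranslated exons are part of the counts, and the coding exons are only 494 of the 3598 exon bases of Max.

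Within each library the activating partners exceeded the repressing partners. Myc and Mycn together stood at 167, 160 and 171 CPM per kb in replicates 1, 2 and 3, and the 6 repressing partners together at 31.8, 30.7 and 31.9 CPM per kb. The activating to repressing ratio was 5.23, 5.22 and 5.37, a mean log2 ratio of 2.40 ± 0.02 (SD, n = 3). Activating partners thus made up 84.0%, 83.9% and 84.3% of the level of all 8 Max partners. By reads without length scaling the activating share was 61.6%, 61.6% and 62.9%, with exact 95% intervals that overlapped (60.7 to 62.4%, 60.5 to 62.6% and 61.96 to 63.8%). The ratio by reads was 0.71 log2 units. Mga, with the longest exon length, took 21.1% of partner reads and 5.06% of their level per kb.

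**Figure D2:**
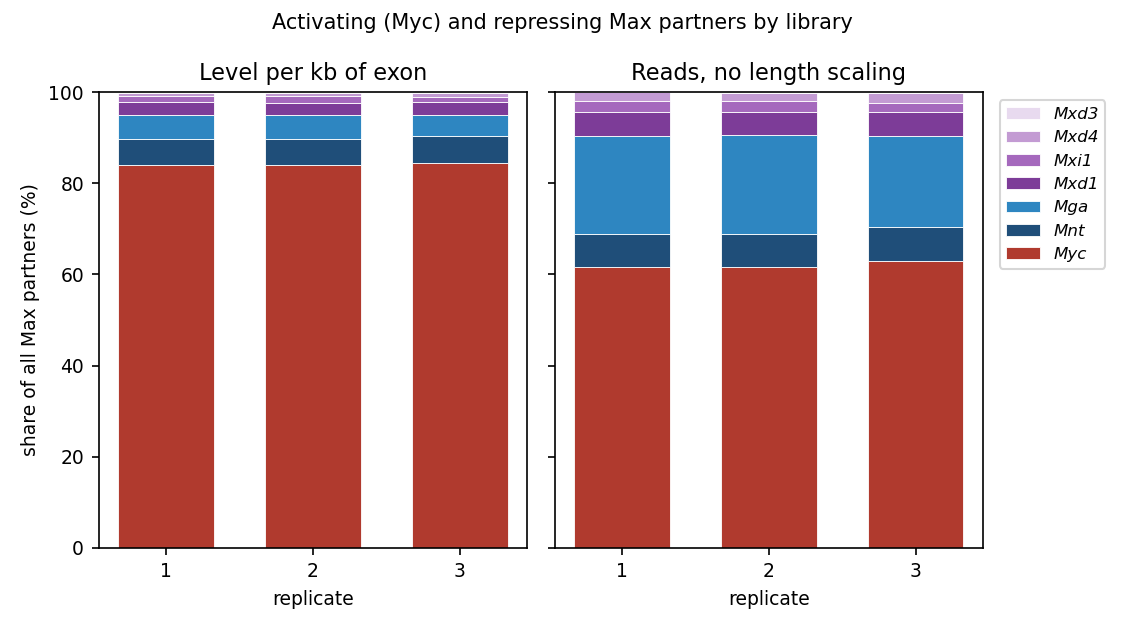
Share of each Max partner (%) in replicates 1, 2 and 3, by level per kb of exon (left) and by reads (right); Mycn, with 1 read, is not drawn. Myc takes 83.9 to 84.3% by level and 61.6 to 62.9% by reads.

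Single antagonists were each far below Myc. The mean log2 ratio of Myc was 3.84 ± 0.01 to Mnt, 4.06 ± 0.09 to Mga, 4.95 ± 0.02 to Mxd1, 6.06 ± 0.20 to Mxi1, 6.66 ± 0.13 to Mxd4 and 8.73 ± 0.56 to Mxd3 (SD, n = 3, 0.5 added to each read count). On the linear scale Myc exceeded Mnt 14.4-fold, 14.4-fold and 14.2-fold in replicates 1, 2 and 3, with a 95% counting interval of 13.5 to 15.4 in replicate 1. The ratio to Mxd1 was likewise close between libraries, at 30.9, 31.5 and 30.5. The ratio to Mxd3 was the least certain, at 654, 385 and 306, with a counting interval of 382 to 1370 in replicate 1.

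The stoichiometry to Max was measured in the same way. Myc RNA exceeded Max RNA 2.98-fold, 2.95-fold and 3.06-fold in replicates 1, 2 and 3 (mean log2 ratio 1.58 ± 0.03, SD, n = 3), with counting intervals of 2.87 to 3.10, 2.81 to 3.09 and 2.93 to 3.19. The repressing partners together stood at 0.570, 0.564 and 0.569 of the Max level (-0.82 ± 0.01 log2 units). Within the repressors, the 4 Mxd genes together amounted to 0.455, 0.452 and 0.473 of the level of Mnt and Mga together (-1.12 ± 0.03), and Mlx to 0.651, 0.641 and 0.664 of Max (-0.62 ± 0.03). Each of the 12 ratios had the same sign in 3 of 3 libraries. An exact two-sided sign-flip permutation test gave p = 0.25 for each, before and after adjustment over the 12 ratios. With 3 libraries this test cannot give a lower p, whatever the size of the ratio. RNA ratios do not give the ratios of the proteins, which were not measured here.

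The length used set some of these ratios. The Myc to Max ratio was 0.91 log2 units with the longest coding transcript and turned to -0.29 with coding exons only. The repressors to Max ratio turned to 0.47 with no length scaling, and the Mxd family to Mnt and Mga ratio turned to 1.10 with coding exons only. The ratio of the activating to the repressing partners and those of Myc to each single repressor kept their sign at every length.

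**Figure D3:**
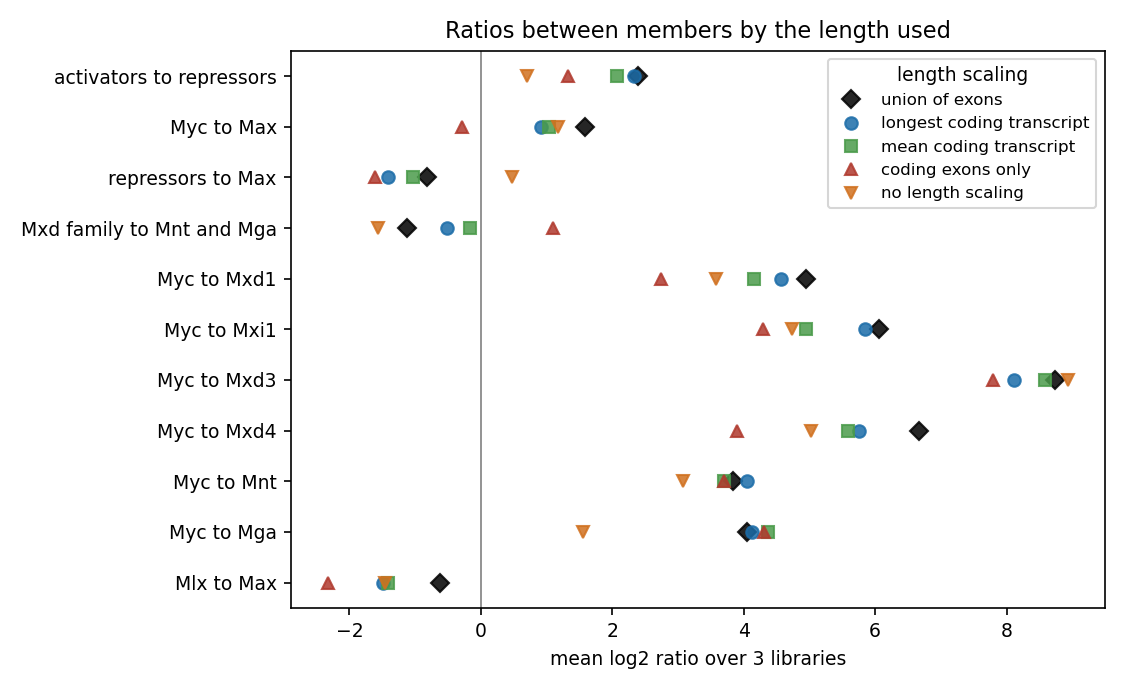
Mean log2 ratio over the 3 libraries for 11 ratios between network genes (Myc to Mycn is not drawn) under 5 ways of scaling reads by length. Myc exceeds every repressing partner under all 5, whereas Myc to Max, repressors to Max, and the Mxd family to Mnt and Mga each change sign under 1 of them.

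Among the 8 members that passed the filter, Myc was the one called as differing between the libraries beyond counting noise after adjustment. Of these 8 members tested, 1 (12.5%) varied at an adjusted p under 0.05 in edgeR's likelihood-ratio test with dispersion 0, against 13.7% of all 13500 genes tested (1847 genes), so the members' share was near the background. The Myc call came with adjusted p = 0.0062 and a range of 0.10 log2 units, lowest in replicate 2 and highest in replicate 3. The median range of all tested genes was 0.17, and the test calls abundant genes more readily: 33.9% of the genes of at least 100 CPM varied. Without replicate 2 the Myc range was 0.05 with adjusted p = 0.195, and without replicate 3 it was 0.05 with adjusted p = 0.225. Mxi1 and Mxd4 had wider ranges, 0.31 and 0.35 log2 units, and were not called, with adjusted p = 0.145 and 0.156 in the same edgeR test. The spread over the libraries was 11.3% of the mean for Mxi1, 12.5% for Mxd4 and 3.61% for Mga, above the 6.23%, 6.90% and 2.08% that counting noise alone would give, without passing the adjusted threshold. It was also above the counting value for Myc (3.30% against 1.21%), Mxd1 (4.89% against 4.18%), Mnt (3.99% against 3.52%) and Mlx (3.25% against 3.03%). Of the filtered members Max alone was below it. The share of all filtered genes above their counting value was not counted, and an SD over 3 libraries is itself uncertain. For Mxd1, Mnt and Mlx the adjusted p in the edgeR test was 0.483, 0.489 and 0.530, so they were not called. Max, Mxd1, Mnt, Mga and Mlx ranged over 0.05 to 0.15 log2 units, and the smallest adjusted p among them in that test was 0.219 (Mga).

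Several members had the same order of libraries, noticed after the values were seen and not tested. Myc, Max, Mxd1, Mxd4, Mnt and Mlx, 6 of the 8 members that passed the filter (75.0%), had their lowest CPM in replicate 2 and their highest in replicate 3, as did 17.9% of all 13500 filtered genes. Of these 6, Myc alone passed the test above, so the order of the other 5 is a description of values that were not called different. For Max these were 201, 196 and 202 CPM in replicates 1, 2 and 3, a range within counting noise. Mga (159, 154 and 148 CPM) and Mxi1 (18.6, 17.5 and 14.9 CPM) were instead highest in replicate 1 and lowest in replicate 3. Neither was called different, and the share of all filtered genes with that order was not counted. The nuclear RNA Malat1 (1781, 1600 and 1364 CPM), picked by name, had that order too. So did Rn18s-rs5, picked by name and annotated as a ribosomal RNA pseudogene (10918, 9686 and 8858 CPM). Among other genes looked up by name, Psmc3ip followed it as well (9.24, 8.37 and 6.999 CPM). Pvt1 (20.06, 18.0 and 22.0 CPM) and Prelid1 (177, 165 and 175 CPM) did not. Genes picked in this way do not show how common the order was. The part of RNA or library composition in these values was not tested.

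Most genes known from other work as activated by Myc had levels above that of the typical expressed gene. All 31 genes of that list were above 1 CPM (30.2% of all symbols were), and 25 were above 100 CPM (5.74% of all symbols and 19.0% of the filtered genes were). The median of the list was 83.1 CPM per kb, against 8.37 CPM per kb over the filtered genes, and 30 of the 31 were above the median of the filtered genes. The highest were Ldha (lactate dehydrogenase, 495 ± 19.9 CPM per kb), Npm1 (nucleophosmin, a nucleolar protein of ribosome production, 261 ± 6.31), Hspd1 (the mitochondrial chaperonin, 177 ± 3.71) and Shmt2 (the mitochondrial serine hydroxymethyltransferase of one-carbon metabolism, 177 ± 8.36; SD, n = 3 each). The lowest was Tert, the catalytic subunit of telomerase, with 223, 130 and 166 reads (1.93 ± 0.130 CPM per kb). Of the 31 genes 10 (32.3%) varied between the libraries, against 13.7% of all genes tested and 33.9% of the genes of at least 100 CPM. The lists were chosen with earlier results of these data known, and what share of this RNA depends on Myc was not tested.

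Genes known as repressed by Myc together with Miz1 were mixed, and 2 of the 3 were above 1 CPM (30.2% of all symbols were). Cdkn1a, the cell cycle inhibitor p21, stood at 24.3 ± 1.08 CPM per kb with 1651, 1043 and 1324 reads. Cdkn2b, the inhibitor p15, had 5, 6 and 6 reads, and the stress gene Gadd45a had 34, 25 and 31 reads. Of the pair known as targets of Mlx with Mlxip, Txnip, an inhibitor of glucose uptake, stood at 44.6 ± 1.95 CPM per kb and the related arrestin Arrdc4 at 5.09 ± 0.370 (SD, n = 3).

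The cofactors of both arms were present. For scale, 30.2% of all symbols were above 1 CPM, and 19.0% of the filtered genes were above 100 CPM. All 15 coactivators of Myc were above 1 CPM, 8 of them above 100 CPM, and all 15 were above the median of the filtered genes per kb. The list had a median of 20.7 CPM per kb and was led by Ruvbl2 (61.5 ± 1.61), an ATPase of the TIP60 complex, Kat2a (the histone acetyltransferase GCN5, 42.8 ± 0.141), Wdr5 (32.8 ± 1.83) and Ruvbl1 (31.1 ± 0.947). Trrap, the scaffold through which Myc recruits acetyltransferases and a gene singled out here for that role, stood at 20.1 ± 0.821 CPM per kb. All 17 corepressor genes, of the Sin3 and histone deacetylase complex that Mxd proteins and Mnt recruit or of the NCoR type, were above 1 CPM and 9 above 100 CPM, with a median of 14.4 CPM per kb and 12 of the 17 above the median of the filtered genes. They were led by the histone-binding subunit Rbbp7 (99.4 ± 2.03), the corepressor Ncor1 (33.6 ± 0.874), Brms1 (33.1 ± 0.834) and the scaffold Sin3a (27.2 ± 0.207), and the lowest was Arid4b (4.59 ± 0.119).

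The 12 partners of Mga in its Polycomb complex were all above 1 CPM, 3 of them above 100 CPM, with a median of 10.7 CPM per kb, close to the 9.995 of Mga itself, and 8 of the 12 were above the median of the filtered genes. Tfdp1 (the DP1 partner of E2F factors, 33.1 ± 1.71), Wdr5, L3mbtl2 (17.5 ± 0.115) and Hdac2 (17.0 ± 0.455) were highest and Cbx3 (6.07 ± 0.0475) lowest. The list shares 3 of its genes with the lists of cofactors. Among the 10 regulators of Myc protein, all above 1 CPM, 3 above 100 CPM and 5 above the median of the filtered genes per kb, the ubiquitin ligase Huwe1 (47.02 ± 2.00), the deubiquitinase Usp36 (34.03 ± 0.474), Mycbp2 (25.8 ± 1.07) and Zbtb17 (Miz1, 21.0 ± 0.538) were highest. Skp2, the ubiquitin ligase subunit best known for destroying the inhibitor p27, was lowest, with 175, 88 and 101 reads (0.974 ± 0.168 CPM per kb). Beside these counts, 30.2% of all symbols were above 1 CPM and 19.0% of the filtered genes above 100 CPM. In lists this small the difference from those shares was not tested. The regulators were split evenly about the median, as the filtered genes are by definition.

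Other factors of the same structural class gave a scale for the network. Of 9 further E-box binding factors 7 were above 1 CPM (30.2% of all symbols were) and 6 above the median of the filtered genes per kb. Srebf2, the regulator of cholesterol synthesis genes, was highest at 92.7 ± 3.23 CPM per kb, below Myc (166 ± 5.48) and above Max (55.5 ± 0.905) in every library. Srebf1 (30.97 ± 0.472), Usf2 (21.4 ± 0.959) and Usf1 (14.8 ± 0.293) followed. Tfec, a factor of macrophages, had no read in any library.

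**Figure D4:**
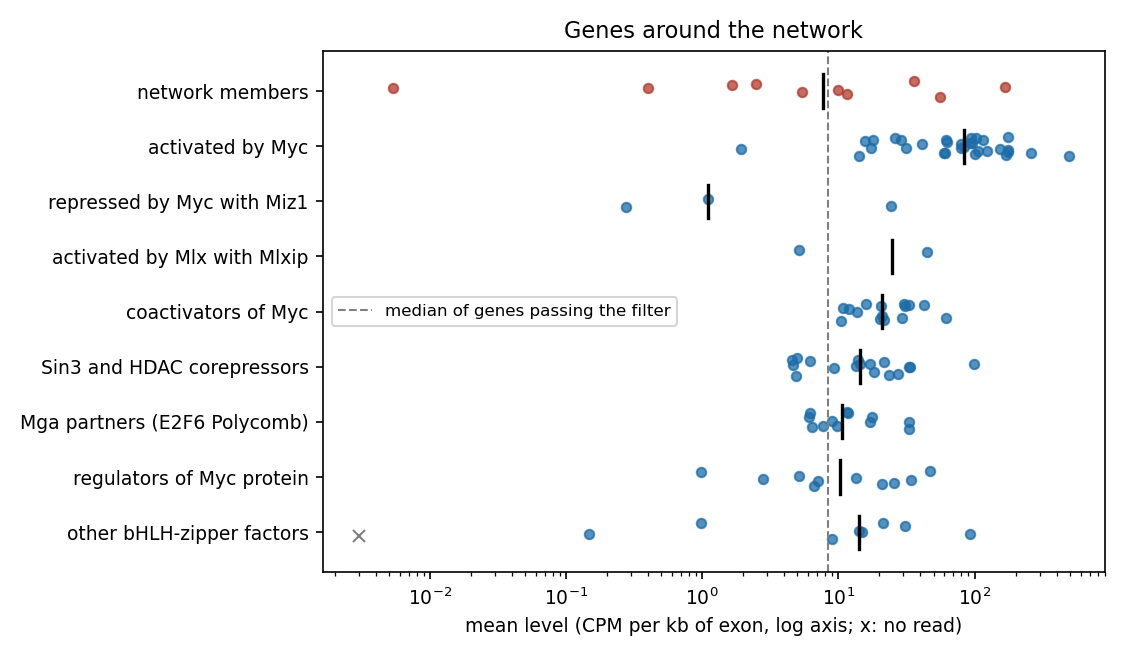
Mean level (CPM per kb of exon, log axis) of each gene in 9 groups, network members at the top; dots are genes, short black lines are medians over the group, the dashed line is the median of the filtered genes (8.37 CPM per kb) and the cross is Tfec with no read. The list known as activated by Myc centres on 83.1 CPM per kb.

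The E-box bound by all these pairs, CACGTG, reads the same on both strands, and it was looked for in RefSeq promoters of 300 bases (250 before to 50 after each start, build GRCm38.p6). Of the 10 members 9 had a promoter entry (Myc was the one without), and 4 of the 9 held the motif: Max, Mlx, Mnt and Mxd4. Over all promoters 7.15% of 32851 held it. Counted by gene, as for the members, 8.09% of 27025 genes held it in at least 1 promoter. Of the expressed genes with an entry 12.5% of 8287 did. Of the list known as activated by Myc 22 genes had an entry and 7 held the motif (31.8%), Ldha and Hspd1 among them. Shmt2, at a level like that of Hspd1, had an entry without the motif. The stretches around the motif are shown because both common partners, Max and Mlx, carry it, with the E-box in capitals, 5′ to 3′ on the gene's strand. The Max stretch is chr12:76962219-76962291 (minus strand), Mlx chr11:101087210-101087295 (plus), Mnt chr11:74830761-74830846 (plus), Mxd4 chr5:34187884-34187960 (minus), Ldha chr7:46845716-46845801 (plus) and Hspd1 chr1:55088278-55088363 (minus).
Max: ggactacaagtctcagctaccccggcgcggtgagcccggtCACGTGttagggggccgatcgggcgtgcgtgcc
Mlx: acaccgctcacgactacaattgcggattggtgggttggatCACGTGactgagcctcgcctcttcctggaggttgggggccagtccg
Mnt: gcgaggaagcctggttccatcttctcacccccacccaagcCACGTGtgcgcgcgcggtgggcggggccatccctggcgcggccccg
Mxd4: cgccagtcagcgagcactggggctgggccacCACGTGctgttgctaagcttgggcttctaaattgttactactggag
Ldha: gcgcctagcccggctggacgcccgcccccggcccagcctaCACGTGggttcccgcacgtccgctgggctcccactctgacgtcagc
Hspd1: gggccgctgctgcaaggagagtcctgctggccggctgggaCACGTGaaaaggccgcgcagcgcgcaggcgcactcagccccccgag

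In Max the E-box spans the start itself, from base -3 to base 3 counted from the RefSeq start with no base 0. It begins at base -40 in Mlx, -123 in Mnt, -219 in Mxd4, -80 in Hspd1 and -48 in Ldha, which has another at -145. The 4 members with the motif ranged from 55.5 CPM per kb (Max) to 1.64 (Mxd4), and the 5 without it (Mxd1, Mxi1, Mxd3, Mga and Mycn) from 9.995 (Mga) to the single read of Mycn. A match to these letters is a description and no evidence of binding, which was not measured here.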

How the data were processed

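The authors deposited unnormalized counts of reads for each gene symbol, in 1 table with a column per library, as its whole numbers and unequal column totals show. The submitters' processing notes name mm10; how reads were aligned and counted, with which annotation and whether by strand, is not given in the sources used here. All members and gene lists (16 lists, 160 entries, 1 of them under an older symbol) were chosen with earlier results of these data known. All members and the 3 relatives could be named, and of each other list at most the 4 highest genes per kb, the lowest and those with no read. Trrap was named outside that rule.

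CPM is counts over the library total times 1000000. Exon lengths are unions of exons from GENCODE vM21 (GRCm38, the assembly of mm10), found for 30998 symbols. Differences between libraries were tested with edgeR 4.0.16 (TMM factors 0.996 to 1.003, likelihood-ratio test, dispersion 0, Benjamini-Hochberg over 13500 genes); with 1 group no quasi-likelihood contrast exists. A self-test used Poisson counts simulated for all symbols and filtered anew. It found 82 of the 100 genes set to change 1.5-fold, 90 of the 100 set to change 2-fold and 7 of 13320 others. The libraries differed pairwise in 742 to 1193 genes, so none was a copy. Ratios had 0.5 added to each read count. DESeq2 1.42.0 size factors, other filters, other lengths, 0.1 added and each library left out were the alternatives. R 4.3.3, Python 3.11.15, scipy 1.17.1 and matplotlib 3.10.9 were used.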

Additional observations from a re-analysis of the deposited data

How the results depend on the processing

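No paired analysis was possible because all 3 libraries belong to 1 group. With DESeq2 size factors, unscaled totals, no filter or a filter of 10 CPM, 1 member varied between the libraries, as in the report. Under these settings 1845 of 13500, 1839 of 13500, 1668 of 22914 and 1848 of 9331 genes varied, in that order. With a library left out the number of members varying was 0 to 1. It was 1 without replicate 1, where 1120 of 13211 genes varied. It was 0 without replicate 2 (1193 of 13211 genes) and 0 without replicate 3 (742 of 13216 genes). Of the 12 ratios, all kept their sign with 0.1 added to each count, with any library left out and with the longest or mean coding transcript as length. The reversals were Myc to Max at -0.29 and the Mxd family to Mnt and Mga at 1.10 with coding exons only, and repressors to Max at 0.47 with no length scaling. The activating to repressing ratio was 2.40 log2 units, 2.95 without Mga, 3.06 without Mnt, 4.07 against the Mxd family alone, 1.32 with coding exons and 0.71 with no length scaling. At this depth Mycn, Mycl and Mlxipl cannot be told from absent, and the Myc to Mycn ratio (13.5 log2 units, 15.2 with 0.1 added) depends on the count added.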
